A study of Sus scrofa with 5 samples.

Results

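The genes that make cholesterol, and the SREBP2 machinery that sets how much they are transcribed, were followed through single nuclei of the pig abdominal aorta. The list holds 29 genes, and 28 of them were matched by symbol among the 35670 features of the count matrices. MBTPS2, the other protease of the machinery, was not matched, so it has no counts here. Nuclei came from 5 castrated male Ossabaw pigs that entered the study at 12 months of age. The obese group is 3 pigs on a HF/HFru diet, and the control group is 2 pigs on chow. Diet lasted 6 months according to the sample labels and 9 months according to the series' design text. Each library was made from 1 pig, from a frozen piece of abdominal aorta of about 50 mm, with nuclei stained by DRAQ5 and sorted before capture with 10x Genomics 3' chemistry. The title contrasts atherosclerotic with healthy aortae, but the groups are known here by diet alone, since lesions were not scored in the data used. All 5 animals share the strain, the sex and the castration.

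Cholesterol is built from acetyl-CoA by a chain of enzymes that first makes mevalonate, then isoprenoid units, then squalene, and at last closes and trims the sterol rings. The genes of this chain are switched on together by SREBP2, the product of SREBF2, a membrane-bound transcription factor. When membranes hold little sterol, SCAP escorts SREBP2 to the Golgi, where the site-1 protease MBTPS1 and then the site-2 protease release its active part. When sterol is plentiful, INSIG1 and INSIG2 hold SCAP in the endoplasmic reticulum and the genes of synthesis are transcribed less. Cells of the artery wall also take up sterol from lipoproteins, store it as esters made by SOAT1, and hydroxylate it with the mitochondrial enzyme CYP27A1.

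Total depth was 21516249 to 47724416 UMIs per library, and 5697 to 12282 nuclei per pig were kept. Nuclei were put into 24 clusters, and clusters were named from fixed marker genes. Names end in "-like" because they rest on markers alone. Smooth muscle-like nuclei numbered 4310, 4471 and 6556 in obese replicates 1 to 3, and 9492 and 4547 in control replicates 1 and 2. Fibroblast-like nuclei numbered 451 to 893 per pig and endothelial-like nuclei 143 to 494. Macrophage-like nuclei numbered 381, 1672 and 159 in the obese pigs but 53 and 20 in the control pigs. The smooth muscle-like class was not made of the same clusters in both groups: cluster 2 held 2965 and 1264 nuclei of the control pigs and 30, 17 and 177 of the obese pigs, while cluster 3 held 1703, 2315 and 290 of the obese and 20 and 99 of the control pigs. The endothelial-like class was split as well: cluster 12 held 67, 62 and 40 nuclei of the obese and 384 and 202 of the control pigs, and cluster 16 held 166, 198 and 114 of the obese and 172 and 42 of the control pigs. In fibroblast-like nuclei the summed level of 9 smooth muscle markers, 1398 to 2023 CPM, stood above that of 9 fibroblast markers, 804.1 to 1167 CPM, so smooth muscle transcripts are present in that class too, and 11 endothelial markers there summed to 1255 to 2192 CPM. Between 66 and 104 barcodes of each library also occurred in another library. CPM here is the UMI count of a gene per 1000000 UMIs of the same class in the same pig.

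Sterol response elements are short sequences through which SREBP2 binds DNA, often next to CCAAT and GC boxes. A window from 250 bases before to 50 bases after the annotated start was read for 26 of the 29 listed genes, MBTPS2 included, from RefSeq on the pig build Sscrofa11.1, for comparison with 19531 protein-coding genes. The element was searched as TCACNCCAC on both strands, with CCAAT and GGGCGG beside it. IDI1, LSS and CYP51A1 gave no window, so they were not searched. The sterol element was found in the windows of 3 members, HMGCS1, SQLE and SREBF2, which is 11.5% of the windows of listed genes against 0.916% of all windows. A CCAAT match lay in 19 member windows (73.1%, against 35.4% of all windows), and a GC box in 20 (76.9%, against 50.6%). The members' windows had a median GC content of 63.8%, against 58.7% of all windows. None of the sterol element matches overlapped a CCAAT or GC box match. A match describes letters and no binding was measured. The bases before the start are printed for the regulator and for an early enzyme of the chain, because both carry the element, which stands in capitals. It begins 93 bases before the start of SREBF2, at chr5:6784725-6784974 on the minus strand, and 181 bases before that of HMGCS1, at chr16:27957262-27957511 on the minus strand; in SQLE it begins 177 bases before the start.
SREBF2: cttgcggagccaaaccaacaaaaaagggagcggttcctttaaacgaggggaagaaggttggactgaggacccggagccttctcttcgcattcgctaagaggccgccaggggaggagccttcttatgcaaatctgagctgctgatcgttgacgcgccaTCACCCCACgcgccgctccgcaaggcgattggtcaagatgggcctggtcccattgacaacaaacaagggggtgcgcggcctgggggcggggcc
HMGCS1: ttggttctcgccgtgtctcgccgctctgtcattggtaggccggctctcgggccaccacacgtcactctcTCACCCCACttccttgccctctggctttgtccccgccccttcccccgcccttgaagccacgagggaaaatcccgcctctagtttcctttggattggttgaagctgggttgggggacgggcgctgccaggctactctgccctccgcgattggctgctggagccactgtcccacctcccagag

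In smooth muscle-like nuclei, 4 members fell in obese pigs and 0 rose when nuclei were classed by cluster. With nuclei chosen one by one by their own markers, the definition planned at first, 1 member fell, SREBF2. There 7 of 18462 genes were called lower. The 4 by cluster were SREBF2, the regulator itself, INSIG1, a brake on it and one of its classic targets, IDI1, which isomerises the isoprenoid unit, and SQLE, which oxidises squalene. All 28 matched members could be tested, and genes were called at an adjusted p under 0.05 by edgeR's quasi-likelihood test over all 17477 genes tested, of which 0.0515% were called lower. Every obese pig lay below both control pigs for 14 members, which was so for 12.5% of all genes tested, and above both for 1 member, against 16.6% of all genes. At an unadjusted p under 0.05 there were 13 lower and 0 higher members, against 5.51% and 7.72% of all genes. The members' median log2 fold change was -0.80 and 21 of 28 values were negative, while the median of all genes was 0.0018 and 49.8% of them were negative. The number of falls rested on the pigs, as did the calls over all genes. Without obese replicate 1, 0 members were called, where 0 of 17071 genes were called lower. Without obese replicate 2 it was 3 members (14 of 16963 genes lower), and without obese replicate 3 it was 2 (27 of 17138). A fit without control replicate 1 or 2 leaves 1 control pig, so no count of calls is given for it. The members' median log2 fold change was then -0.91 or -0.89. DESeq2 called 10 members lower and 0 higher, against 0.83% and 2.39% of all genes.

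**Figure D1:**
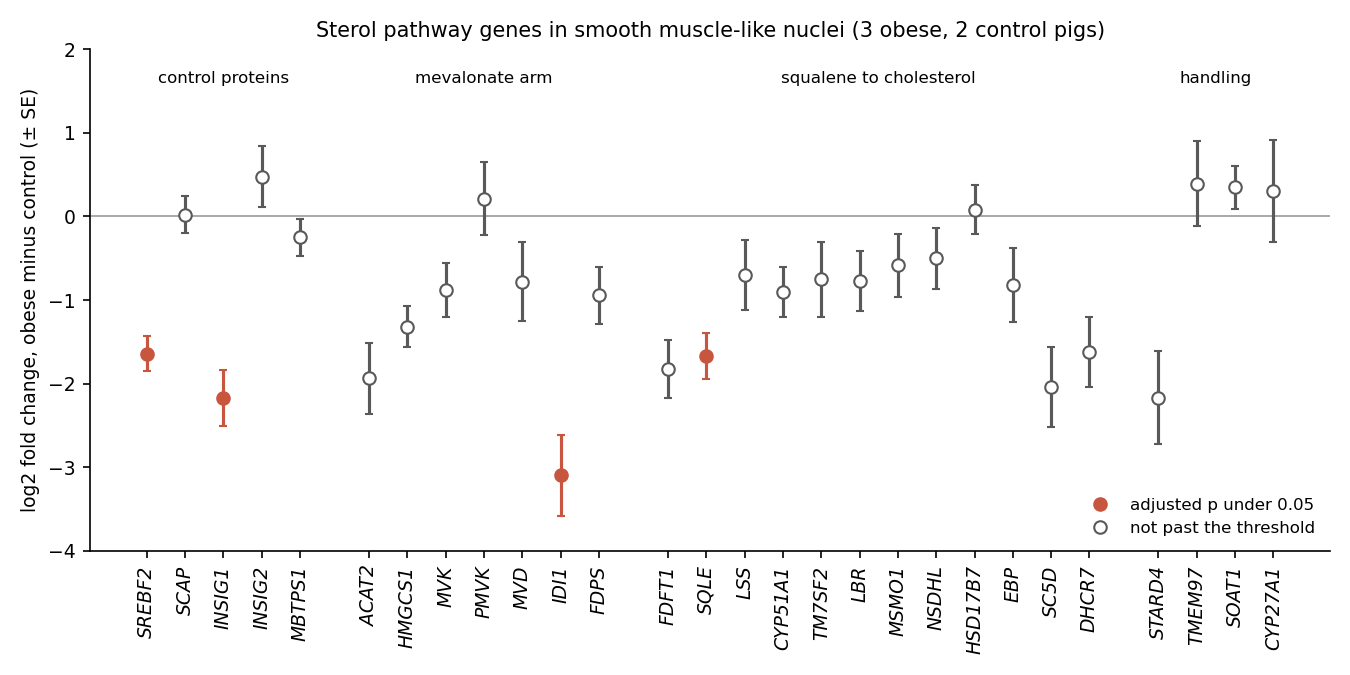
Log2 fold change (obese minus control) with its standard error for 28 members in smooth muscle-like nuclei, from 3 obese and 2 control pigs, ordered along the pathway. Filled points (SREBF2, INSIG1, IDI1 and SQLE) passed an adjusted p of 0.05, and 21 of the 28 points lie below 0.

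Among the control proteins, SREBF2 was at 26.7, 28.3 and 30.3 CPM in obese replicates 1 to 3 and at 88.0 and 84.2 CPM in control replicates 1 and 2. The groups were far apart and the pigs within a group close together, at 28.4 ± 1.80 CPM (SD, n = 3) against 86.1 ± 2.73 CPM (SD, n = 2), a level 3.03 times lower in obese pigs. Its log2 fold change was -1.64 (SE 0.21, edgeR adjusted p = 0.0224). With 1 pig left out it stayed between -1.73 and -1.57, while its adjusted p ran from 0.0253 to 0.151. INSIG1 was at 2.60, 5.50 and 3.03 CPM in the obese pigs and at 15.7 and 16.5 CPM in the control pigs. The highest obese pig stood far below the lower control pig, and the log2 fold change was -2.17 (SE 0.34, edgeR adjusted p = 0.0408). It was -1.30 (edgeR adjusted p = 0.21) in nuclei chosen one by one. The escort SCAP did not follow them: it was at 34.7, 39.2 and 36.0 CPM in obese and 32.0 and 37.8 CPM in control pigs, with a log2 fold change of 0.02 (SE 0.22). MBTPS1 overlapped between the groups as well, at 29.6, 41.3 and 37.5 against 43.5 and 39.8 CPM. INSIG2 ran from 11.5 to 17.7 CPM in the obese pigs, with control replicate 1 inside that range at 15.3 CPM and control replicate 2 below it at 6.32 CPM. RefSeq places INSIG2 at 2 loci, 1 of them overlapping PDE8A on the same strand. Whether the counts used here are split between such loci was not checked.

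In the mevalonate arm, which runs from acetyl-CoA to farnesyl diphosphate, 1 of 7 members fell and 5 of 7 had obese pigs entirely below control pigs. IDI1 was rarely counted in the obese pigs, at 0.306, 0.505 and 0.318 CPM, which are 4, 9 and 6 UMIs. It reached 4.01 and 2.32 CPM in the control pigs, from 139 and 40 UMIs. The difference was -3.09 on the log2 scale (SE 0.48, edgeR adjusted p = 0.0408). ACAT2, which joins acetyl-CoA units, was at 0.843, 0.729 and 1.11 CPM in obese and 3.60 and 3.13 CPM in control pigs. HMGCS1, the synthase that makes HMG-CoA, was at 9.19, 10.3 and 8.44 CPM against 24.3 and 20.8 CPM. Both had groups without overlap but did not pass the test, with log2 fold changes of -1.93 (edgeR adjusted p = 0.101) and -1.32 (edgeR adjusted p = 0.0674). The kinase MVK stood at 3.37, 3.70 and 3.61 CPM against 6.20 and 6.55 CPM. FDPS, the farnesyl diphosphate synthase, stood at 3.98, 3.70 and 2.44 CPM against 6.69 and 5.80 CPM. The obese pigs lay close together below the control pigs for these last genes, and neither passed the test (log2 fold changes -0.88 and -0.94, edgeR adjusted p = 0.282 and 0.284). MVD, the decarboxylase, and PMVK, the phosphomevalonate kinase, overlapped between the groups. PMVK was lowest in control replicate 1 at 4.24 CPM and second highest in control replicate 2 at 12.2 CPM, so the control pigs disagreed. RefSeq has PMVK overlapping KCNN3 on the same strand.

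From squalene to cholesterol, 1 of 12 members fell and 6 of 12 had obese pigs entirely below control pigs. SQLE was at 10.95, 9.65 and 12.6 CPM in the obese pigs and at 41.6 and 27.6 CPM in the control pigs. The obese pigs were alike and the control pigs less so, and the log2 fold change was -1.67 (SE 0.27, edgeR adjusted p = 0.0456). FDFT1, which makes squalene and so takes the first step given over to sterols, was at 5.06, 8.86 and 9.23 CPM against 34.7 and 18.8 CPM (log2 fold change -1.82, edgeR adjusted p = 0.0705). SC5D, a desaturase of the late steps, was at 0.919, 1.12 and 1.01 CPM against 5.94 and 2.20 CPM (log2 fold change -2.04, edgeR adjusted p = 0.115). DHCR7, which performs the last reduction of one route, was at 0.996, 0.898 and 0.955 CPM against 2.62 and 3.07 CPM (log2 fold change -1.62, edgeR adjusted p = 0.137). In all 3 the control pigs were above the obese pigs, with the wider spread in control pigs for FDFT1 and SC5D. CYP51A1, the lanosterol demethylase, had 6.59, 5.33 and 6.05 CPM against 10.0 and 11.7 CPM. EBP, a sterol isomerase, had 0.843, 0.954 and 0.902 CPM against 1.76 and 1.33 CPM. Their log2 fold changes were -0.90 (edgeR adjusted p = 0.237) and -0.82 (edgeR adjusted p = 0.464).

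The remaining 6 enzymes of this stretch overlapped between the groups. LSS, which closes the rings of lanosterol, split the pigs in another way: obese replicate 2 and control replicate 2 had 53.7 and 61.6 CPM, and the other pigs 17.2, 22.1 and 33.8 CPM. TM7SF2, a sterol reductase, was low in obese replicates 1 and 2, at 6.97 and 4.99 CPM, and 15.4 CPM in obese replicate 3, between the control levels of 14.6 and 16.0 CPM. LBR, the other reductase and a protein of the nuclear envelope, and MSMO1, a methyl sterol oxidase, were each highest in control replicate 1, at 16.7 and 11.07 CPM. NSDHL, which works with MSMO1, ran from 3.60 to 7.60 CPM. HSD17B7, the keto reductase of the same complex, was at 19.4, 13.2 and 12.0 CPM against 15.3 and 11.9 CPM. Summed over the 19 enzymes of both arms, the obese pigs had 112.4, 152.2 and 123.5 CPM and the control pigs 244.4 and 228.9 CPM, so the level was 1.83 times lower in the obese group (129.3 ± 20.5 against 236.6 ± 10.9 CPM, SD, n = 3 and 2). The same sum in fibroblast-like nuclei was 170.9, 227.8 and 155.5 CPM against 251.2 and 255.0 CPM, 1.37 times lower. In macrophage-like nuclei it was 118.1, 116.7 and 124.8 CPM against 200.1 and 164.8 CPM, 1.52 times lower, with only 15 and 6 UMIs behind the control values. In both of these classes the obese pigs lay below the control pigs. In endothelial-like nuclei the groups overlapped, at 82.5, 159.2 and 105.4 CPM against 136.5 and 153.2 CPM.

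**Figure D2:**
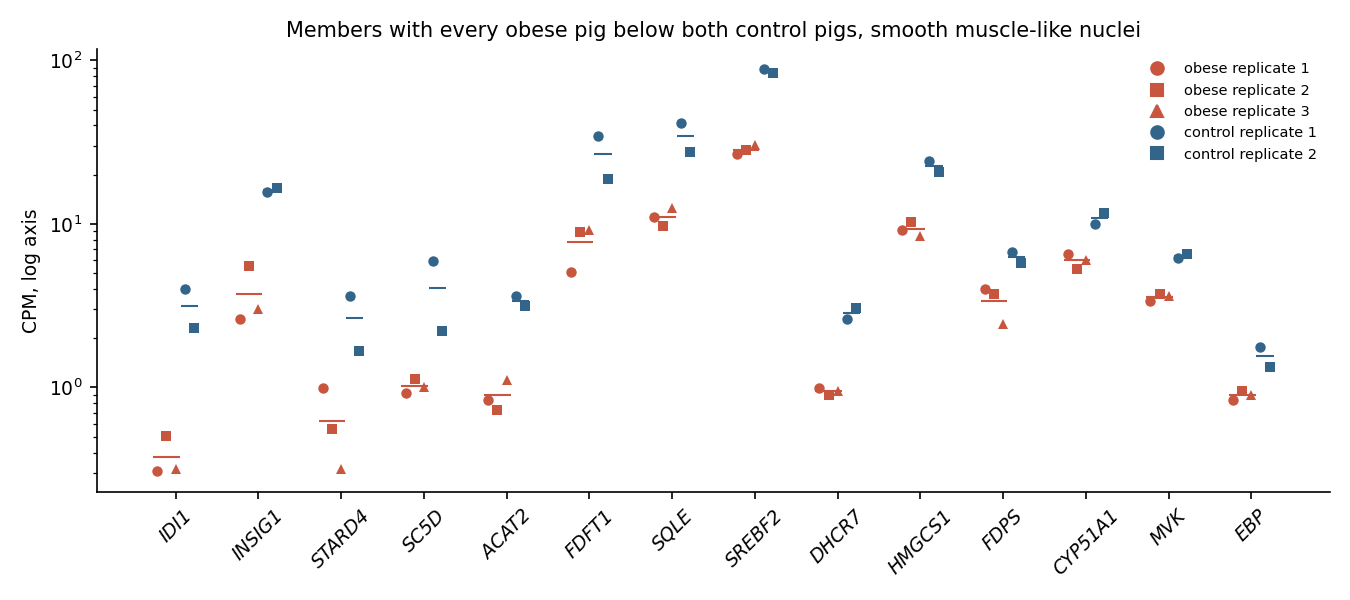
CPM on a log axis in each pig for the 14 members whose obese pigs all lay below both control pigs in smooth muscle-like nuclei, ordered by fold change. Each point is a pig and each short line the mean of a group, and the groups are farthest apart for IDI1 and closest for EBP.

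Of the 4 members that handle sterol, 0 were called. STARD4, a carrier of sterol between membranes and itself an SREBP2 target, was at 0.996, 0.561 and 0.318 CPM in obese and 3.60 and 1.68 CPM in control pigs. These are 13, 10 and 6 UMIs against 125 and 29, and the log2 fold change was -2.17 (SE 0.55, edgeR adjusted p = 0.137). SOAT1, which esterifies cholesterol for storage, was the 1 member with the obese pigs above both control pigs, at 15.2, 17.1 and 13.3 CPM against 12.7 and 10.4 CPM. The difference was 0.35 on the log2 scale and did not pass the test (edgeR adjusted p = 0.61). It was 1.15 with nuclei chosen one by one (edgeR adjusted p = 0.139), 0.99 with 1 more marker asked of each and 0.81 with the unnamed clusters 5, 7 and 8 added, and passed in none of them. TMEM97, a sterol-regulated membrane protein, ran from 0.69 to 1.74 CPM with no order between the groups. CYP27A1 ranged from 2.49 CPM in obese replicate 3 to 14.9 CPM in obese replicate 2, with both control pigs between them.

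Clusters 0 and 1, which all pigs filled, are part of the class sum, so their values are not a separate observation. Within them SREBF2, INSIG1 and SQLE were lower in every obese pig, and IDI1 in cluster 0 only. How often the groups were apart among all genes within a cluster was not computed. In cluster 0, the largest one, SREBF2 was at 24.0, 36.5 and 35.2 CPM in obese and 97.6 and 90.4 CPM in control pigs. In cluster 1 it was at 22.8, 24.6 and 27.7 CPM against 77.5 and 89.3 CPM. Cluster 3, mostly of obese pigs, had 28.7, 28.6 and 28.1 CPM in them, and cluster 2, mostly of control pigs, had 87.4 and 83.2 CPM in those. The obese pigs stayed between 22.8 and 36.5 CPM and the control pigs between 77.5 and 97.6 CPM in whichever of clusters 0 to 3 they filled. In cluster 9 the groups came closer, at 25.1, 24.6 and 40.3 CPM against 82.6 and 45.4 CPM, the last from 15 UMIs. Cluster 10 had 40.1, 33.6 and 29.2 CPM against 123.1 and 74.6 CPM, and cluster 20 had 9.16, 23.2 and 21.2 CPM against 33.6 and 89.5 CPM. The 20 and 99 control nuclei of cluster 3 had 270.4 and 104.7 CPM, from 32 and 51 UMIs. INSIG1 in cluster 1 was at 3.81, 4.92 and 3.42 CPM against 18.9 and 22.3 CPM, and in cluster 0 at 4.20, 9.54 and 3.20 CPM against 15.3 and 12.3 CPM. SQLE in cluster 0 was at 10.8, 8.98 and 12.0 CPM against 48.1 and 23.8 CPM. IDI1 had 0, 1 and 0 UMIs in cluster 0 against 35 and 11, but overlapped in cluster 1, at 0, 3.28 and 0.342 CPM against 3.99 and 1.89 CPM. In the small cluster 9, HMGCS1 was lowest in control replicate 2, at 3.03 CPM from 1 UMI, and 7.09 to 12.0 CPM in the obese pigs. With clusters 0 and 1 alone, an alternative chosen after seeing the data, SREBF2 had a log2 fold change of -1.70 (edgeR adjusted p = 0.0232) and was the 1 member still called, among 26 tested. With clusters 5, 7 and 8 added, which carried no class name and came mostly from obese pigs, 5 members were called lower, SREBF2 at -1.55. Of all genes, 2 of 13867 were called lower with clusters 0 and 1 alone, and 11 of 18512 with clusters 5, 7 and 8 added.

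**Figure D3:**
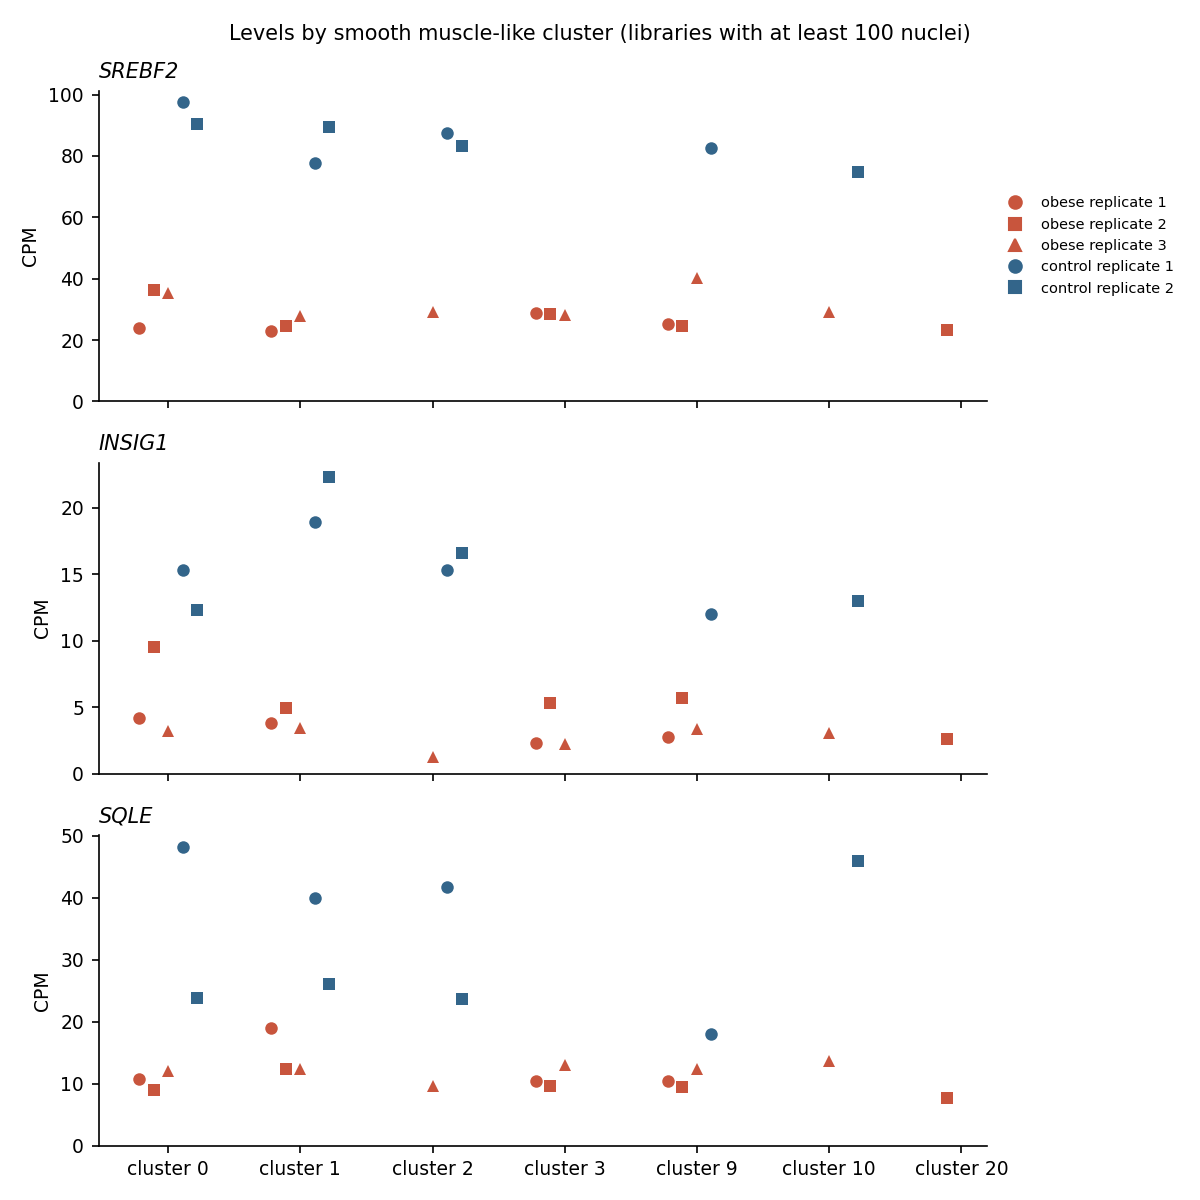
CPM of SREBF2, INSIG1 and SQLE in each smooth muscle-like cluster, with 1 point per pig for pigs that gave at least 100 nuclei to the cluster. In clusters 0 and 1, where all pigs are present, every obese pig lies below both control pigs for the 3 genes, which were called in the class sum that holds these clusters. The share of all genes with groups apart there was not computed.

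Markers of other cells moved with the groups in these nuclei. The summed level of 12 macrophage markers was 11.7 to 60.8 CPM in the obese pigs and 5.71 and 9.74 CPM in the control pigs, with 10 of the 12 higher in every obese pig and none of them at 0. The sum of 7 pericyte markers was 469.3 to 567.1 CPM in the obese and 736.5 and 844.6 CPM in the control pigs, with 4 of the 7 lower in every obese pig. The 9 fibroblast markers summed to 105.2 to 126.0 CPM in the obese and 52.9 and 87.4 CPM in the control pigs, while 3 other fibroblast markers, kept out of the class definition, went the other way, at 305.4 to 499.6 against 675.8 and 606.5 CPM. The 8 B or plasma cell markers summed to 55.1 to 80.5 CPM in the obese and 50.9 and 44.0 CPM in the control pigs. The 9 smooth muscle markers themselves summed to 7763 to 10991 CPM in the obese pigs and to 7874 and 7828 CPM in the control pigs. The part of other cells in the sterol gene differences was not tested. The median depth overlapped between groups, at 1784.5 to 2760 UMIs per nucleus in obese and 2609 and 2532 in control pigs.

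In fibroblast-like nuclei, 0 of the 15 members with enough counts were called in either direction, among 9429 genes of which 0.0318% were called lower and 0.233% higher. At an unadjusted p under 0.05 there were 3 lower members, SREBF2, FDFT1 and SQLE, and 1 higher, SOAT1, against 4.53% and 7.2% of all genes. DESeq2 called 0 members, against 0.244% of genes lower and 1.26% higher. Every obese pig lay below both control pigs for 4 of the 15 and above both for 1, against 14.8% and 13.1% of all genes. SQLE was at 12.3, 7.20 and 9.50 CPM in obese and 35.0 and 28.5 CPM in control pigs, a log2 fold change of -1.72 (SE 0.38, edgeR adjusted p = 0.115). FDFT1 was at 11.5, 13.7 and 6.91 CPM against 24.5 and 24.3 CPM (log2 fold change -1.16, edgeR adjusted p = 0.278). SREBF2 was at 83.7, 78.6 and 57.9 CPM against 122 and 112 CPM, a log2 fold change of -0.67 (SE 0.24, edgeR adjusted p = 0.314). That was -0.33 with nuclei chosen one by one and -0.06 with 1 more marker asked of each (edgeR adjusted p = 0.984). The obese pigs of each gene lay below the control pigs. SOAT1 had 21.1, 26.2 and 24.2 CPM in obese and 13.4 and 7.55 CPM in control pigs (log2 fold change 1.14, edgeR adjusted p = 0.287). The members' median was -0.26, and that of all genes 0.0034. The 13 members without enough counts had 5 to 70 UMIs over all pigs. Every obese pig lay below both control pigs for 2 of them, MVK and DHCR7, and above both for 1, MVD. The shares among all genes too sparse to test were not computed, so these counts are descriptions. MVD had 4 UMIs in each obese pig and 8 and 3 in the control pigs. DHCR7 had 1 UMI in each obese pig and 12 and 5 in the control pigs, a pooled ratio of obese to control of 0.2003 (95% exact interval 0.0376 to 0.693, counting error only).

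In endothelial-like nuclei, only 8 members had enough counts, none of the mevalonate arm among them, and 0 were called. Of the 6783 genes tested, 2.03% were called lower and 5.59% higher. At an unadjusted p under 0.05 there were 0 lower and 2 higher members, SOAT1 and HSD17B7, against 9.8% and 15.1% of all genes. DESeq2 called 0 members, against 2.68% of genes lower and 7.92% higher. The groups were apart for 2 lower and 2 higher members, and for 24.8% and 18.4% of all genes. SOAT1 was at 19.7, 32.6 and 8.32 CPM in obese and 6.24 and 4.40 CPM in control pigs (log2 fold change 2.00, SE 0.60, edgeR adjusted p = 0.0725). Macrophage markers, 12 in all, summed to 26.9, 132.3 and 11.09 CPM in these nuclei of the obese pigs and 3.81 and 8.80 CPM in those of the control pigs, in the same order of obese pigs as SOAT1, which was highest in macrophage-like nuclei; their part was not tested. SOAT1 was called without obese replicate 3 (edgeR adjusted p = 0.0408), while over 8 alternatives its adjusted p reached 0.417. HSD17B7 was at 17.9, 23.0 and 13.9 CPM against 9.01 and 3.67 CPM (log2 fold change 1.54, edgeR adjusted p = 0.132). SREBF2 was at 37.6, 49.9 and 105 CPM in obese and 65.5 and 57.9 CPM in control pigs, so the obese pigs lay on both sides of the control pigs, and obese replicate 3 stood alone. Its log2 fold change of 0.15 (SE 0.45) was -0.46 without that pig. The class value joins clusters that the groups filled unequally. In cluster 16, SREBF2 was at 39.3, 51.0 and 92.2 CPM in obese and 136.7 and 80.3 CPM in control pigs, the last from 6 UMIs, a pooled control level 2.20 times the obese one (95% exact interval 1.50 to 3.24, counting error only). In cluster 12 it was at 36.0, 46.5 and 131.1 CPM against 53.7 and 56.6 CPM, a pooled ratio of 0.905 (0.621 to 1.36). Obese replicate 3 was the highest obese pig in both clusters. LBR was at 5.38, 15.3 and 5.55 CPM against 20.8 and 20.5 CPM, and SCAP at 48.4, 28.8 and 33.3 CPM against 50.6 and 87.2 CPM, neither past the test (edgeR adjusted p = 0.244 and 0.249). The obese nuclei were shallower here, with median depths of 1379 to 1429 UMIs against 4025 and 4994. The summed level of 9 fibroblast markers was 221.8 to 303.0 CPM in the obese pigs and 673.6 and 720.7 CPM in the control pigs, and its part in these values was not tested. Of the 20 members without enough counts, 6 had every obese pig below both control pigs and 1, PMVK, above both. Among the genes tested these shares were 24.8% and 18.4%. The shares among all genes too sparse to test were not computed, so the counts are descriptions. SQLE had 2 UMIs in each obese pig and 26 and 12 in the control pigs, a pooled ratio of obese to control of 0.466 (95% exact interval 0.161 to 1.11). MSMO1, with 1 UMI in each obese pig and 32 and 9 in the control pigs, had a pooled ratio of 0.216 (0.0428 to 0.677), and INSIG2, with 3, 5 and 0 UMIs against 41 and 24, one of 0.363 (0.150 to 0.759). SC5D, DHCR7 and STARD4 had no UMI in any obese pig and 8, 4 and 7 in the control pigs. A count of 0 in 1439950 UMIs allows up to 2.08 CPM, so a difference in these 3 was not detectable at this depth.

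In macrophage-like nuclei, 6 members had enough counts and 0 were called, among 5737 genes of which 0.0523% were called lower and 0.244% higher. For 0 of these 6 every obese pig lay below both control pigs and for 2, INSIG1 and SOAT1, above both, against 14.3% and 20.2% of all genes. SOAT1 was at 259, 265 and 263 CPM in the obese pigs, from 340, 2034 and 95 UMIs. The control pigs had 40.0 and 54.9 CPM, which rest on 3 and 2 UMIs. The obese pigs were alike and above the control pigs, with a log2 fold change of 2.61 (SE 0.57, edgeR adjusted p = 0.107). It was the 1 higher member at an unadjusted p under 0.05, with 0 lower, against 8.4% and 4.2% of all genes. DESeq2 called it (adjusted p = 0.0454), with 1.01% of genes called higher and 0.471% lower. With nuclei chosen one by one and 1 more marker asked of each, its log2 fold change was -0.24. INSIG1 was at 106, 88.1 and 283 CPM in obese pigs and 40.0 and 82.4 CPM in control pigs, from 3 UMIs in each of the control pigs (log2 fold change 1.56, SE 0.79, edgeR adjusted p = 0.444). SREBF2 overlapped between the groups, at 39.6, 42.8 and 63.8 CPM against 66.7 and 54.9 CPM from 5 and 2 UMIs. Its log2 fold change of -0.31 (edgeR adjusted p = 0.915) was -1.25 with nuclei chosen one by one and -1.86 with 1 more marker asked of each (edgeR adjusted p = 0.179). Of the 22 members not tested, 3 had every obese pig below both control pigs, HMGCS1, FDPS and LSS, with 1 to 4 UMIs in each control pig. For 6 every obese pig lay above, all with no UMI in the control pigs. In all, 9 had no UMI in either control pig, where 0 of 111377 UMIs allows up to 26.9 CPM. How often the groups were apart among all genes too sparse to test was not computed, so these counts are descriptions. Control nuclei of this class had median depths of 708 and 886 UMIs, against 1275 to 2814.5 in the obese pigs, and their summed level of 9 smooth muscle markers was 2348 and 3323 CPM, against 788.8 to 2604 CPM.

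**Figure D4:**
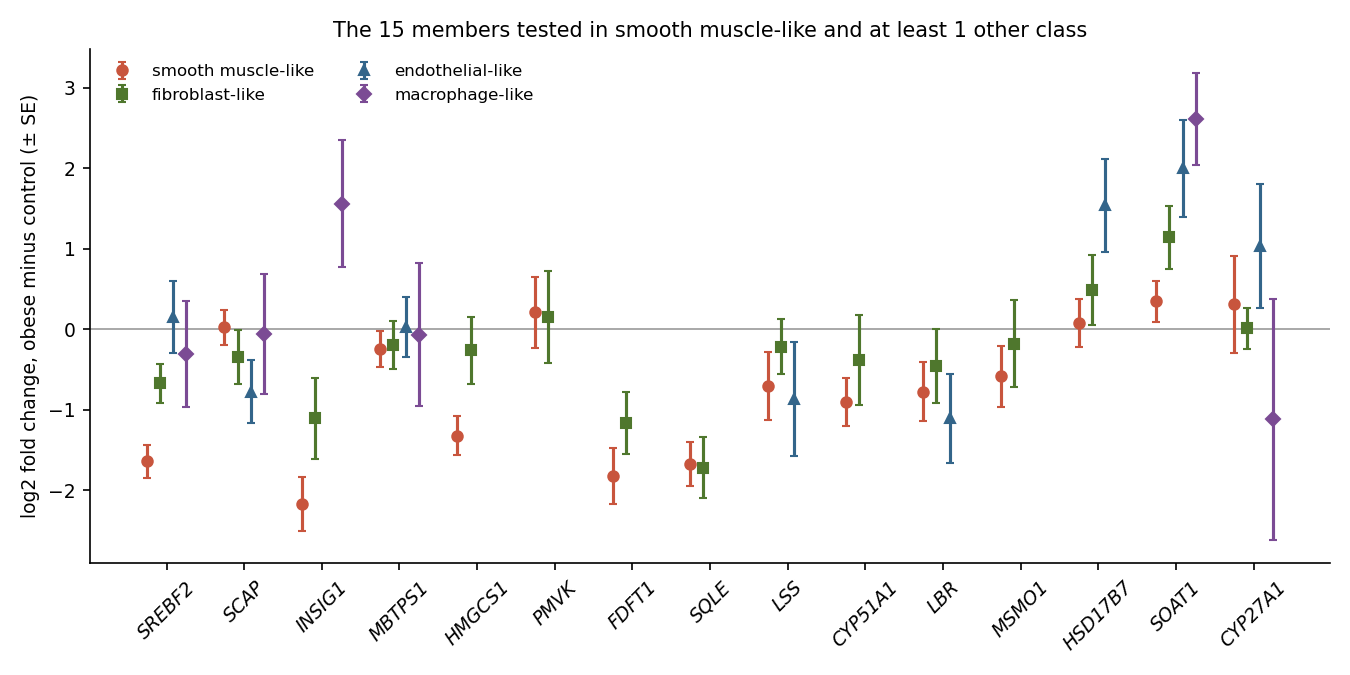
Log2 fold change (obese minus control) with its standard error in each class for the 15 members tested in smooth muscle-like nuclei and in at least 1 other class. SREBF2 is at -1.64 in smooth muscle-like nuclei and at -0.67, 0.15 and -0.31 in fibroblast-like, endothelial-like and macrophage-like nuclei, the last -1.86 under the strictest choice of single nuclei; INSIG1 is at -2.17 in smooth muscle-like and 1.56 in macrophage-like nuclei.

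Whether the response to diet differed from class to class was tested by an interaction term, blocking on the pig. Between smooth muscle-like and endothelial-like nuclei it passed for 3 of 28 members, with 3.49% of 17010 genes called and 13.2% at an unadjusted p under 0.05. The effect on SREBF2 was lower in smooth muscle-like nuclei by 1.53 on the log2 scale, a difference of -1.53 (SE 0.39, edgeR adjusted p = 0.0057). ACAT2 differed by -3.33 (edgeR adjusted p = 0.0233) and INSIG2 by 2.20 (edgeR adjusted p = 0.0411), both resting on few endothelial UMIs: 1, 6 and 5 in obese and 8 and 5 in control pigs for ACAT2, and 3, 5 and 0 against 41 and 24 for INSIG2. Between smooth muscle-like and macrophage-like nuclei it passed for 2 members, with 1.04% of 17131 genes called and 8.6% at an unadjusted p under 0.05. The whole fit was shifted: the median difference of all genes was -1.20, and 147 of the 179 genes called had a negative difference. The values that follow include that shift. INSIG1 differed by -4.07 (SE 0.71, edgeR adjusted p = 2.0e-05) and SOAT1 by -2.76 (edgeR adjusted p = 0.0296), the latter at 0.091 with nuclei chosen one by one. Between smooth muscle-like and fibroblast-like nuclei 0 members passed, as did 0% of 16891 genes; 4 members had an unadjusted p under 0.05, against 5.84% of all genes, and SREBF2 differed by -0.93 (edgeR adjusted p = 0.35). The endothelial side of these differences joins clusters 12 and 16, which differ in their SREBF2 values as given above; the difference was not tested within cluster 16. The SREBF2 difference from endothelial-like nuclei was no longer called without obese replicate 3, where it was -1.08 (edgeR adjusted p = 0.0969), without control replicate 1 (-1.64, edgeR adjusted p = 0.125) or without control replicate 2 (-1.42, edgeR adjusted p = 0.361).

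Levels of some members differed widely between the classes. CYP27A1 was at 382, 280 and 395 CPM in fibroblast-like nuclei of obese pigs and at 351 and 359 CPM in those of control pigs. It was at 2.49 to 14.9 CPM in smooth muscle-like nuclei and 0 to 19.7 CPM in endothelial-like nuclei. Over the whole fibroblast-like class the groups overlapped (log2 fold change 0.01, SE 0.25). The class joins clusters 4 and 14, which the pigs filled unequally: 296 and 316 nuclei in obese replicate 2, 818 and 143 in control replicate 1. In cluster 4, CYP27A1 was at 445.6, 511.5 and 429.7 CPM in obese and 383.6 and 373.1 CPM in control pigs. In cluster 14 the groups overlapped, at 198.9, 85.4 and 151.2 CPM against 72.4 and 206.7 CPM. The share of all genes with groups apart within a cluster was not computed. SOAT1 in obese pigs was at 259 to 265 CPM in macrophage-like nuclei and at 8.32 to 32.6 CPM in the other 3 classes. INSIG1 in obese pigs was at 88.1 to 283 CPM in macrophage-like nuclei and at 0 to 11.5 CPM in the other 3 classes. Cluster 13, a macrophage-like cluster almost wholly of obese replicate 2, had 277.1 CPM of SOAT1 and 71.2 CPM of INSIG1 in that pig, and cluster 6 had 231.2 and 133.0 CPM in the same pig. These are descriptions with no test.

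**Figure D5:**
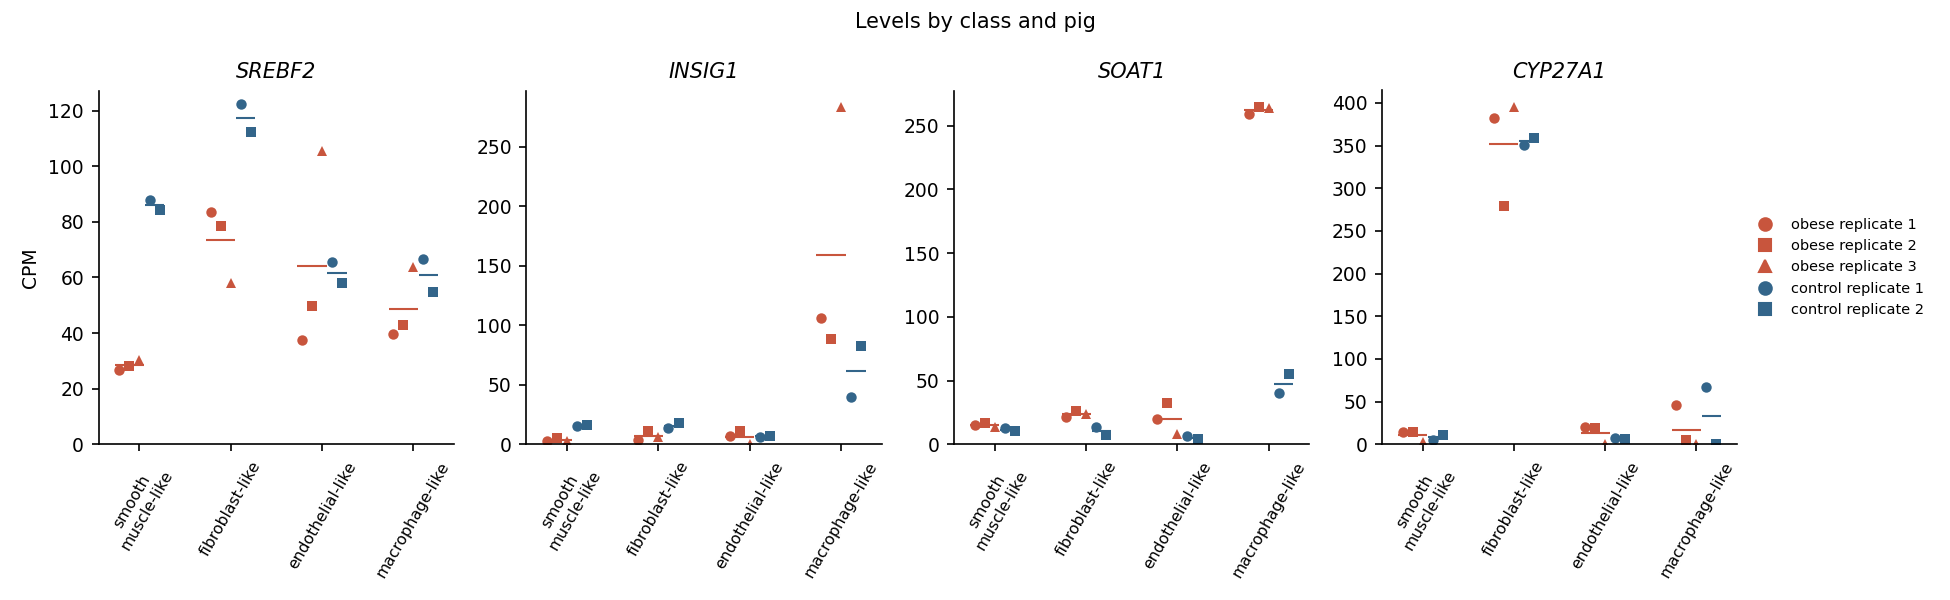
CPM per pig of SREBF2, INSIG1, SOAT1 and CYP27A1 in the 4 classes, with 1 point per pig and a line at each group mean. SREBF2 separates the groups in smooth muscle-like and fibroblast-like nuclei, INSIG1 and SOAT1 stand highest in macrophage-like nuclei of obese pigs, and CYP27A1 in fibroblast-like nuclei of every pig.

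The wider sterol and lipid genes were read from a list of 52, of which 51 were matched. In smooth muscle-like nuclei 1 of 49 tested rose and 0 fell, with 0.177% of all genes called higher. At an unadjusted p under 0.05 there were 4 lower and 6 higher (5.51% and 7.72% of all genes), and DESeq2 called 1 lower and 4 higher (0.83% and 2.39% of all genes). The riser was ABCA1, which exports cholesterol and answers to the oxysterol receptors LXR. It was at 315.7, 275.4 and 311.8 CPM in obese and 94.1 and 73.8 CPM in control pigs (log2 fold change 1.81, SE 0.23, edgeR adjusted p = 0.0224). MYLIP, an LXR target that marks lipoprotein receptors for degradation, had a log2 fold change of 1.73 (edgeR adjusted p = 0.0619), and ACLY, which supplies acetyl-CoA, had -0.97 (edgeR adjusted p = 0.108). APOE, a lipoprotein component made by macrophages, was at 4.60, 39.8 and 5.04 CPM against 0.346 and 0.522 CPM (log2 fold change 5.18, edgeR adjusted p = 0.0861), beside the macrophage markers given above, whose part was not tested. In endothelial-like nuclei 2 of 28 rose and 0 fell, where 5.59% of all genes were called higher, a share near that of the list. They were ABCA1, at 243.8, 358.6 and 235.7 against 62.0 and 71.9 CPM (log2 fold change 2.16, edgeR adjusted p = 0.00504), and ABCG1, another sterol exporter, at 50.2, 47.9 and 80.4 against 7.62 and 16.1 CPM (log2 fold change 2.48, edgeR adjusted p = 0.0175). CYP7B1, an oxysterol hydroxylase, had 1.46 in endothelial-like nuclei (edgeR adjusted p = 0.103) and 0.99 in fibroblast-like nuclei (edgeR adjusted p = 0.269). In fibroblast-like nuclei 0 of 40 and in macrophage-like nuclei 0 of 31 were called. At an unadjusted p under 0.05 there were 2 lower and 3 higher in fibroblast-like nuclei (4.53% and 7.2% of all genes) and 0 lower and 2 higher in macrophage-like nuclei (4.2% and 8.4% of all genes), and DESeq2 called 1 and 0.

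Over all kept nuclei together, 0 of 28 members were called, as were 0 of all 20289 genes tested. At an unadjusted p under 0.05 there were 13 lower and 1 higher members, against 6.02% and 8.02% of all genes. The groups were apart for 13 lower and 1 higher members, and for 12.5% and 18% of all genes. SREBF2 was at 34.8, 43.2 and 39.2 CPM in obese and 92.5 and 87.7 CPM in control pigs (log2 fold change -1.27, edgeR adjusted p = 0.096). INSIG1 lost the separation seen in smooth muscle-like nuclei, at 9.50, 25.6 and 7.21 CPM against 14.5 and 16.3 CPM. SOAT1, the higher member, was at 36.7, 75.6 and 24.4 CPM against 12.4 and 11.4 CPM. The mix of classes differs between the pigs, and obese replicate 2, with the most macrophage-like nuclei, was the highest for both genes.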

How the data were processed

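The authors deposited UMI counts, not normalized, by gene and barcode, made with Cell Ranger, version 5.0 per the submitters' processing notes and 7.1.0 per the file headers. The labels name the build Sscrofa11, and Seurat 5.0 for later steps the matrices do not show. How introns and strand were counted is not given in the sources used here. From them, 45503 of 45580 barcodes were kept, those with 300 genes or more and mitochondrial UMIs of no more than 5%. Nuclei were clustered on 3000 variable genes without the pathway genes, by 30 principal components, 20 neighbours and leidenalg 0.10.2 at resolution 1.0. A name needed 3 markers at 20 CPM and 2 times the 25th percentile over clusters, with a mean position of 0.3, set after values were seen. No doublet caller was run; 552 nuclei carrying markers of another class were left out. Nuclei chosen one by one by their markers were the planned main definition. That choice took under 30% of the nuclei of the fibroblast-like, endothelial-like and macrophage-like clusters, and 79.5% of the smooth muscle-like ones. For 1 definition in all classes, clusters were made the main one before pathway values were computed, and the planned one became an alternative.

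Counts were summed per pig and tested with edgeR 4.0.16 (quasi-likelihood, TMM, filterByExpr, Benjamini-Hochberg; 3 residual degrees of freedom), with DESeq2 1.42.0 as an alternative, in R 4.3.3, and tested on simulated data. In a fit without 1 control pig, the other is assumed to vary like the obese pigs. Members and lists were chosen with earlier results of these data known; all members are accounted for, and other genes are named if called, or as the 4 of smallest p per class; 4 genes of the wider list are not reported here. Nothing says that pigs with the same number are paired.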

Additional observations from a re-analysis of the deposited data

Results flagged for a closer look

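In 5 cases the effect of the diet on a member differed between smooth muscle-like nuclei and another class by the interaction test of edgeR, and each is given as the smooth muscle-like effect minus the other. Against endothelial-like nuclei the difference was -1.53 for SREBF2, -3.33 for ACAT2 and 2.20 for INSIG2. Over 10 alternatives the SREBF2 difference ran from -1.72 to -0.96 and was called in 5, the ACAT2 difference from -3.82 to -2.41 with 4 calls, and the INSIG2 difference from 1.38 to 3.01 with 3 calls.

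Against macrophage-like nuclei the difference was -4.07 for INSIG1 and -2.76 for SOAT1, in a fit where the median of all genes was -1.20. Over the alternatives that median ran from -5.57, without control replicate 1, to -0.48, with nuclei chosen one by one. INSIG1 ran from -4.68 to -2.23 over 10 alternatives and was called in 9 of them, with adjusted p from 7.2e-07 to 0.119. SOAT1 ran from -2.95 to 0.61 and was called in 2 of 10. The control side of both rests on 2 or 3 UMIs per gene and pig in macrophage-like nuclei, where depth was lower than in the obese pigs. The part of depth in these differences was not tested.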

How the results depend on the processing

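In smooth muscle-like nuclei the number of members called lower was 4. It was 10 with no filter on low counts (290 of 29863 genes lower), 10 with DESeq2 (145 of 17477), 1 with nuclei chosen one by one (7 of 18462), 1 with 1 more marker asked of them (19 of 17789) and 1 with clusters 0 and 1 alone (2 of 13867), against 9 of 17477 genes lower beside the 4. It was 5 with clusters 5, 7 and 8 added (11 of 18512). With 1 obese pig left out it ran from 0 to 3, and no count is given for the fits that leave 1 control pig. The median of -0.80 was -0.91 with the replicate number as a block and -0.71 with clusters 0 and 1 alone, and ran from -0.91 to -0.82 with 1 pig left out. The called members SREBF2, INSIG1, IDI1 and SQLE kept a negative fold change under all 14 alternatives, but were called in 11, 7, 6 and 6 of them; SQLE was lost with DESeq2 size factors (edgeR adjusted p = 0.0509) and IDI1 with the replicate block (edgeR adjusted p = 0.0642).

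Members near 0 changed sign. In smooth muscle-like nuclei SCAP was -0.012 with no filter, -0.0018 with the replicate block, -0.049 with nuclei chosen one by one and -0.024 with 1 more marker; with 1 pig left out it ran from -0.12 to 0.18. CYP27A1 was -0.0080 with nuclei chosen one by one and -0.029 with clusters 0 and 1 alone, where TMEM97 was -0.018. With 1 pig left out CYP27A1 ran from -0.17 to 0.98, INSIG2 from -0.0014 to 1.21, PMVK from -0.39 to 1.19 and HSD17B7 from -0.16 to 0.24. SREBF2 in endothelial-like nuclei was -0.089 with no filter, -0.46 with the replicate block, -0.26 with nuclei chosen one by one and -0.049 with 1 more marker, and ran from -0.46 to 0.44 with 1 pig left out. In macrophage-like nuclei SREBF2 was 0.084 with no filter, -1.25 with nuclei chosen one by one and -1.86 with 1 more marker, and ran from -0.42 to 0.38 with 1 pig left out, and SOAT1 was -0.24 with 1 more marker.

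In fibroblast-like nuclei 1 member was called lower with no filter (91 of 24516 genes lower). The median was -0.050 with nuclei chosen one by one, and ran from -0.51 to -0.19 with 1 pig left out. In endothelial-like nuclei 1 member, SOAT1, was called higher without obese replicate 3, where 420 of 8239 genes were called, 107 of them lower. The median of 0.088 was -0.57 with no filter, -0.33 with the replicate block and 0.50 with nuclei chosen one by one, and ran from -0.46 to 0.024 with 1 pig left out. In macrophage-like nuclei 1 member was called higher with no filter (228 of 24311 genes called, 31 of them lower) and 1 with DESeq2 (58 of 5737 genes higher). The median of -0.064 was 0.69 with no filter, and ran from -0.15 to 0.99 with 1 pig left out.

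For the differences between classes, against fibroblast-like nuclei 1 member was called with no filter and 1 with nuclei chosen one by one. Of all genes, 166 of 30159 and 373 of 17403 were called there. Against endothelial-like nuclei 0 were called with 1 more marker (290 of 15966 genes) and 0 with nuclei chosen one by one (378 of 16721). Without obese replicate 1, 2 were called, SREBF2 and ACAT2 (533 of 16891 genes). Without obese replicate 2 it was also 2, SREBF2 and INSIG2 (490 of 16264). None of SREBF2, ACAT2 and INSIG2 was called without obese replicate 3 (631 of 16563). Against macrophage-like nuclei 1 was called with DESeq2 size factors (154 of 17131 genes) and 1 with no filter (110 of 30178). It was 1 with nuclei chosen one by one (323 of 17126) and 0 with 1 more marker (195 of 16317). INSIG1 was called without each obese pig in turn, and SOAT1 beside it without obese replicate 2. Genes called in those fits were 138 of 16941, 97 of 15369 and 81 of 16670 for obese replicates 1 to 3. The cause of these changes was not tested. Same-numbered pigs correlated at 0.097 (replicate 1) and -0.050 (replicate 2) in their deviations from the group means over 17477 genes. The deviations of the 2 control pigs are exact opposites, so each value recurs with the other sign for the other control pig. The numbers were not taken as pairs. With the block, 315 genes were called in smooth muscle-like nuclei, against 40. Depth limits the endothelial-like and macrophage-like classes most: 20 and 22 of 28 members there had too few counts to test.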
